A study of Mus musculus with 15 samples.

Results

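The comparison set the expression response of podocytes to high-amplitude stretch against their response to low-amplitude stretch. It used all 15 of the 15 RNA-seq samples of the series, chosen by the stretch group and experiment in each sample title. Experiment 1 held 6 low-stretch and 3 unstretched samples, and experiment 2 held 3 high-stretch and 3 unstretched samples. Each of the 4 groups was the conditionally immortalised mouse podocyte line SVI, differentiated and seeded on flexible silicone membranes. The labels name no genotype, drug or duration that separates the groups. The sample labels give a deflection of 5 to 6 mm for low stretch and 7 to 8 mm for high stretch, and the design text gives 6 mm and 8 mm. Each effect was the stretched group minus the unstretched group of its own experiment, and the difference was the high-stretch effect minus the low-stretch effect. Amplitude and experiment were the same split, so a change of amplitude and a change of experiment cannot be told apart in any difference given here. The labels do not say that the samples of a group were separate cultures, so the p-values measure the spread between these samples, which may be technical.

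Podocytes wrap the capillaries of the glomerulus with interlocking foot processes, whose shape depends on actin bundles anchored to the glomerular basement membrane. Pressure in the capillary stretches them. Stretch is known to act on cells through focal adhesions, stretch-gated ion channels and small GTPases, and from there through the transcription factors SRF with its cofactor MRTF, YAP with TEAD, AP-1, and the ERK kinase cascade. Complement proteins, interferon-stimulated genes and MHC class I genes make up an innate immune programme that many epithelial cells express without immune cells being present.

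Libraries held between 172.2 M and 396.7 M counts (M, mega), and levels are given as counts per M (CPM) on library sizes scaled by TMM. The first principal component of log2 CPM took 70.2% of the variance and separated experiment 1 from experiment 2, and the second took 12.5%. Replicate 3 of the unstretched samples of experiment 2 stood at 32.48 on the first component, against 121.4 and 162.6 for the other unstretched samples of that experiment. Mitochondrial counts took between 3.55% and 5.21% of the libraries of experiment 1 and between 1.14% and 2.6% of those of experiment 2, with the highest share of experiment 2 in the same replicate 3. Of the podocyte markers, Synpo stayed between 256.3 and 837.4 CPM and Npnt between 209.1 and 721.6 CPM, Nphs1 did not exceed 1.0 CPM, and Ptpro stayed under 0.1 CPM. The markers Pax2 and Pax8, which mark parietal epithelial cells and developing kidney epithelium, were expressed as well, with Pax2 between 167.8 and 403.3 CPM. The immune markers Ptprc, Adgre1, Cd3e and Tyrobp were at or near 0. Transcripts of heart muscle stood out in control libraries of experiment 2. A list of 9 such genes, Myh6 and Ckm among them, written after the values were seen, summed to 38.4 CPM in unstretched replicate 1 and 9.07 CPM in replicate 2, and to between 1.23 and 3.82 CPM in the other 13 libraries. The sum of 4 haemoglobin genes was 1.28 and 0.8 CPM in the same 2 libraries and at most 0.201 CPM elsewhere.

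After low stretch, 640 of the 22015 genes tested passed an adjusted p of 0.05 in edgeR's quasi-likelihood test (2.91%), of which 143 rose (0.65%) and 497 fell (2.26%). After high stretch 1488 genes passed (6.76%), of which 543 rose (2.47%) and 945 fell (4.29%). There were 508 genes that passed in both with the same sign (2.31%), 119 of them higher (0.541%) and 389 lower (1.77%). No gene passed the test of the difference between the effects (0%). At an unadjusted p under 0.05 the difference gave 547 genes (2.48%), 225 with a difference above 0 (1.02%) and 322 below 0 (1.46%). With no difference in any gene, a share of about 0.05 would have such a p-value. The 547 genes are thus fewer than chance alone gives, and none of them is established as different by this threshold. DESeq2 also gave 0 genes for the difference after adjustment and 665 at an unadjusted p under 0.05. Among the 322 genes below 0 were 8 of the 9 heart muscle genes and 3 of the 4 haemoglobin genes. Without unstretched replicate 1 of experiment 2, 490 genes had an unadjusted p under 0.05, 325 of them among the 547 with the same sign, and they included 2 heart muscle and 0 haemoglobin genes. The difference could be bounded for 11364 genes (51.6%): a pair of one-sided tests placed it within 2-fold in either direction at an adjusted p under 0.05.

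These counts depended on how the spread between samples was estimated. With each experiment fitted alone, 1181 genes passed under low stretch and 643 under high stretch, so the order of the counts turned. With the runs of neighbouring well codes as a block, 2468 and 3583 genes passed, and 3 genes passed for the difference: Gm13398, the complement gene C3 and Clu. Without replicate 3 of the unstretched samples of experiment 1, 144 genes passed under low stretch, all of them among the 640. Without replicate 1 of the high-stretch samples 560 genes passed under high stretch, and without replicate 3 of the unstretched samples of experiment 2 it was 2391.

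Most genes had the larger estimated effect under high stretch, a count that favours the side with the larger sampling error. Over all genes tested, median absolute effects were 0.21 after low and 0.28 after high stretch (log2). The median standard errors of these genes were 0.23 and 0.27, so a typical effect was about the size of its error. How much of the count came from this error was not tested. Of all genes tested, 14309 (65%) had the larger absolute effect under high stretch, and of the 1488 genes called there 1467 had the same sign under low stretch. Of the 640 genes called under low stretch, a choice that favours large low-stretch values, 637 kept their sign and 479 (74.8%) were still larger under high stretch. The median standard error was 0.17 for low-stretch and 0.2 for high-stretch effects on the log2 scale, over the 12963 genes with a mean of at least 1 CPM. Over these genes the SD of the effects was 0.35 and 0.51 (log2), and Pearson's r between them was 0.86, across genes that share the same libraries. The high-stretch effect per unit of low-stretch effect was 1.24 as observed. It was 1.84 after the sampling error was removed from the variance of the low-stretch effects. The ratio of the SDs was 1.44 as observed and 1.54 with the sampling error removed from both variances. A value above that ratio implies a correlation above 1, which is impossible, so 1.84 is not a reliable size. With the runs of well codes as a block the corrected values were 1.46 and 1.45. The corrected effect per unit ran from 1.47 without replicate 3 of experiment 2's unstretched samples to 3.09 without replicate 3 of those of experiment 1. It stayed above 1 in each of the 15 fits with 1 sample left out.

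**Figure D1:**
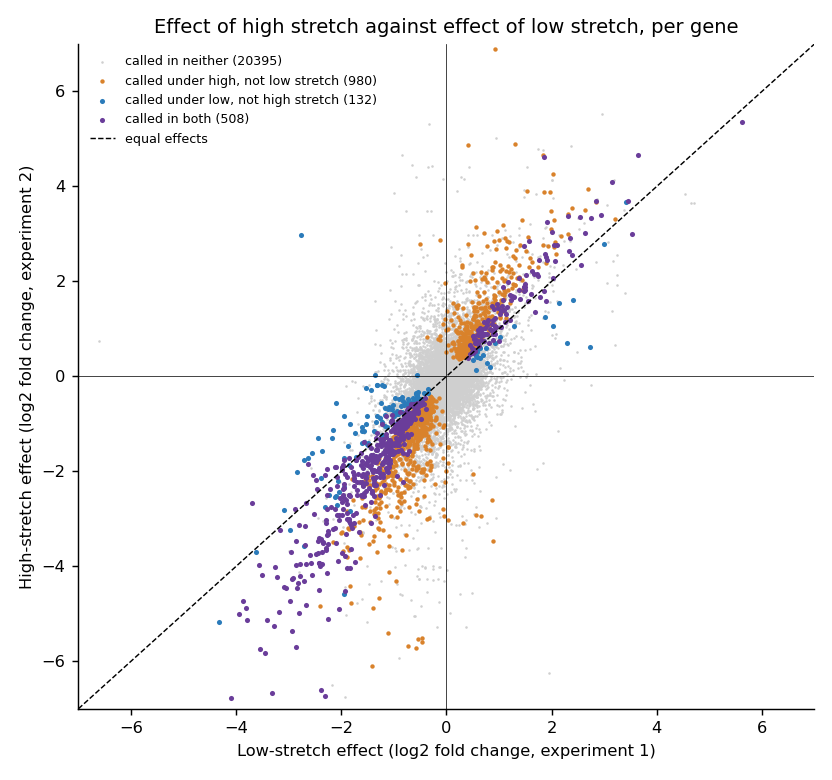
Low-stretch effect (x axis) and high-stretch effect (y axis) of each gene tested, as log2 fold changes. Points are genes, coloured by the effect in which they passed an adjusted p of 0.05; the dashed line marks equal effects and 2 genes lie outside the axes. The 508 genes called in both lie in the lower left and upper right quadrants, and more of them lie beyond the line of equal effects than inside it.

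The difference between the effects can come from the stretched cells or from the controls, since, apart from the averaging used by the fit, it is the gap between the stretched groups minus the gap between the unstretched groups. Among the 547 genes with an unadjusted p of the difference under 0.05, the gap between the unstretched groups was the larger of the pair in 252 genes (46.1%), against 54.2% of all genes tested. C3, the central complement component, is one of them. Its mean log2 CPM was lower by 0.71 in high-stretch than in low-stretch samples, while the unstretched samples of experiment 2 stood higher by 1.59 than those of experiment 1. Clu, a secreted chaperone that restrains the terminal complement complex, differed by 0.31 between the stretched groups and by 1.92 between the unstretched groups. St8sia2, a polysialyltransferase, was higher by 2.71 between the stretched groups and by 1.48 between the unstretched groups. Areg, the EGFR ligand amphiregulin, was the reverse of C3: it differed by 1.83 between the stretched groups and by -0.17 between the unstretched groups.

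**Figure D2:**
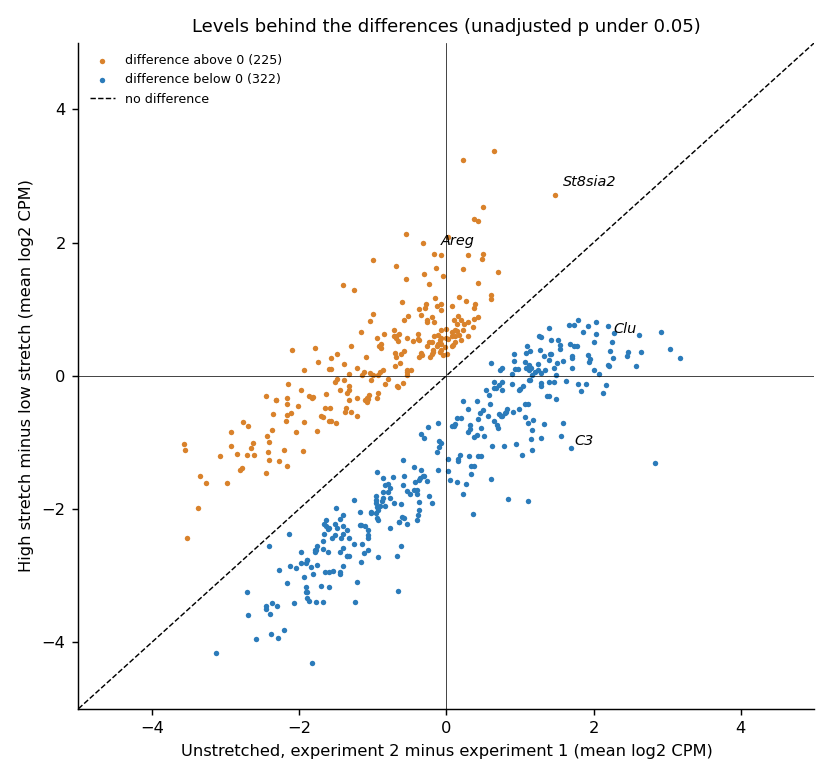
Gap between the stretched groups (high minus low, y axis) against the gap between the unstretched groups (experiment 2 minus experiment 1, x axis), in mean log2 CPM, for the 547 genes with an unadjusted p of the difference under 0.05. The dashed line marks no difference, and the empty band along it follows from the choice of genes. C3 and Clu lie far to the right of 0 on the x axis, and Areg lies close to 0 on it.

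Among genes with a mean of at least 1 CPM and the same sign in both effects, the lowest p-values of the difference belonged to Tmem72, Smtnl2, St8sia2, Cdsn, Cdh16 and Col7a1. Tmem72, which encodes a transmembrane protein, stood at 0.231, 0.248 and 0.266 CPM in high-stretch samples and at 0.767, 1.05 and 1.66 CPM in their controls. Its low-stretch samples ran from 0.776 to 1.11 CPM with a median of 1.01, against 1.55, 1.59 and 1.97 CPM in their controls. The groups were apart in both experiments and the distance was greater in experiment 2. Tmem72 fell by 0.82 after low stretch (SE 0.21, adjusted p 0.0442) and by 2.23 after high stretch (SE 0.27, adjusted p 0.000397) on the log2 scale. The difference was -1.4 (95% interval -2.13 to -0.68, unadjusted p 0.000815).

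Smtnl2, a smoothelin-like protein, was at 2.93, 3.21 and 5.35 CPM under high stretch and at 9.25, 10.6 and 10.9 CPM in the controls. Its low-stretch samples ran from 3.78 to 6.94 CPM and overlapped their controls at 4.9, 5.98 and 6.59 CPM. It fell by 1.42 after high stretch (SE 0.26, adjusted p 0.00428), had a low-stretch effect of -0.12 (adjusted p 0.844), and differed by -1.3 (interval -2.01 to -0.58). The high-stretch and low-stretch levels themselves overlapped, and the controls of experiment 2 were the highest group.

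St8sia2 gave 6.52, 6.87 and 7.43 CPM under high stretch against 2.07, 2.8 and 3.34 CPM in the controls, and between 0.727 and 1.38 CPM in all 9 samples of experiment 1. It rose by 1.34 after high stretch (adjusted p 0.00458), and its low-stretch effect was 0.14 (adjusted p 0.822). Col7a1, the anchoring-fibril collagen of epithelial attachment, stood at 6.75, 7.24 and 8.17 CPM under high stretch against 2.0, 2.06 and 2.81 CPM in the controls. Its low-stretch samples ran from 3.27 to 6.59 CPM with controls at 2.87, 2.9 and 4.2 CPM. Its effects were 0.62 (adjusted p 0.156) and 1.69 (adjusted p 0.00133), with a difference of 1.07 (interval 0.4 to 1.75). Cdh16, the kidney cadherin, fell by 0.93 and by 2.11, and Cdsn, an adhesive protein of cornified epithelium, fell by 0.7 and by 1.58. These 6 genes were chosen by the p-value of the difference, so a sign kept without 1 sample is no further support. In each of them the difference kept its sign in all 15 fits with 1 sample left out, and none passed after adjustment. The low-stretch call held in 4 of the 15 for Tmem72, 11 for Cdh16 and 12 for Cdsn. The tubule marker list, in which Lrp2 and Aqp1 made up most of the level and 4 of 8 genes were under 0.1 CPM, summed to between 326.6 and 809.2 CPM in stretched and between 946.4 and 1377 CPM in unstretched samples. Its part in the fall of the tubular gene Cdh16 was not tested.

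Among the remaining genes, whose effects were opposite in sign or smaller under high stretch, the lowest p-values belonged to S100a7a, Cd68, Usf2-ps1, Myh7, Gm5577 and Btbd19. S100a7a, a calcium-binding protein of the S100 family, stood at 3.65, 5.05 and 5.4 CPM under high stretch against 2.25, 2.6 and 3.09 CPM in the controls. Its low-stretch samples lay between 2.84 and 3.71 CPM and its controls at 3.33, 4.22 and 5.06 CPM. The high-stretch effect was 0.83 (adjusted p 0.0244) and the low-stretch effect -0.37 (adjusted p 0.33), a difference of 1.2 (interval 0.62 to 1.77). Its high-stretch call was lost without high-stretch replicate 1 or 2 or unstretched replicate 1 of experiment 2. Cd68, a lysosomal membrane protein used as a macrophage marker, rose by 0.85 after high stretch from a mean of 1.04 CPM to 1.88 CPM, with a low-stretch effect of -0.11. Its effect under high stretch lost the call when any of 3 samples was left out: high-stretch replicate 2, high-stretch replicate 3 or unstretched replicate 1. The value for Myh7, a cardiac myosin heavy chain, rested on 1 control sample, replicate 1 of experiment 2, far above the others at 0.448 and 0.763 CPM, the library with the highest sum of heart muscle genes.

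Shared effects were ranked by the smaller of both absolute values, among genes called in both with a mean of at least 1 CPM and no overlap between stretched and unstretched samples. Il11, an IL-6 family cytokine induced by mechanical load and TGF-beta, had 0.335, 1.32 and 2.05 CPM in the controls of experiment 1 and from 3.03 to 17.0 CPM, with a median of 8.63, after low stretch. It had 0.767, 1.5 and 2.57 CPM in the controls of experiment 2 and 12.8, 17.2 and 20.6 CPM after high stretch. No stretched sample overlapped a control, and the low-stretch samples spread more widely than the high-stretch samples. Il11 rose by 2.94 (SE 0.65, adjusted p 0.021) and by 3.39 (SE 0.71, adjusted p 0.00925) on the log2 scale. The interval of the difference, -1.36 to 2.26, admits a smaller, an equal and a severalfold larger effect under high stretch. The low-stretch call was lost without unstretched replicate 2 or 3 of experiment 1, and the high-stretch call without unstretched replicate 1 of experiment 2.

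Il1rl1, the receptor of interleukin-33, rose by 2.33 (SE 0.3) and by 2.65 (SE 0.33), from controls between 8.21 and 22.8 CPM in experiment 1 and between 6.33 and 12.6 CPM in experiment 2. Its low-stretch samples ran from 67.3 to 98.7 CPM and its high-stretch samples were at 50.8, 68.4 and 71.7 CPM, so the stretched groups overlapped. Serpinb9b, a granzyme-inhibiting serpin, rose by 2.74 and 3.34, Cmah, the hydroxylase that makes the sialic acid Neu5Gc, by 2.35 and 2.92, and Fam189a1 by 2.85 and 3.69. Under the same limits the largest falls by this rank were those of Cnmd, Adamtsl1, Cldn19, Chst1 and C3, while Serpina3n, which fell further than C3, and Adamts15 had means under 1 CPM. Cnmd, the angiogenesis inhibitor chondromodulin, fell by 3.54 and by 5.73, Adamtsl1 by 3.51 and 4.18, the tight junction claudin Cldn19 by 2.97 and 4.72, and the sulfotransferase Chst1 by 2.96 and 3.69. All 10 named genes had the larger absolute value under high stretch, and the difference had an interval that excluded 0 in 2 of them, Cnmd (-3.9 to -0.5) and C3 (-3.97 to -0.88).

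The promoters of Il11 and C3 are shown for the first-ranked shared rise and for the fall with the largest difference among the 10 genes above. Both are from the RefSeq table for GRCm38.p6, written 5′ to 3′ along the gene from 250 bases before the start to 50 after it. The Il11 window is chr7:4778092-4778391 on the minus strand and is 1 of 2 listed for the gene. The C3 window is chr17:57228087-57228386 on the minus strand. Capitals mark every match, on either strand, to 6 motifs: TEAD (CATTCC), AP-1 (TGANTCA), the CArG box of SRF, the GAS element of STAT factors (TTCNNNGAA), the ISRE core of interferon-stimulated genes and the kappaB site.
Il11: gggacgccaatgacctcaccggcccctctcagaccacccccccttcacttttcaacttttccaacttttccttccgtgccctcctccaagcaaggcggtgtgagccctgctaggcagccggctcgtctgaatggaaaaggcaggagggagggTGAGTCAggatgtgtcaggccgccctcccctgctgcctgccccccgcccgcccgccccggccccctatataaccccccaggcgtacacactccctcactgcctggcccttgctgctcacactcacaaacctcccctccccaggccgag
C3: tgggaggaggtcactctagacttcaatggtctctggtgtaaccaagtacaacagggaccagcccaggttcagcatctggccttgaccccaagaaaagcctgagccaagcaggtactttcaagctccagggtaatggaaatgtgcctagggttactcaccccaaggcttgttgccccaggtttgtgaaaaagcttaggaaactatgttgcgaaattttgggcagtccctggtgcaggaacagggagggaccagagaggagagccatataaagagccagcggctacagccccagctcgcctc
The Il11 window shown holds 1 match, an AP-1 heptamer whose first base lies 98 bases before the start. The other Il11 window, chr7:4782808-4783107, holds a kappaB site whose first base lies 25 bases before its start. The C3 window holds none of the 6. Of the 119 genes that rose in both effects 87 had a RefSeq promoter, and 10.2% of their 127 windows held the AP-1 motif. It was in 11.5% of the 393 windows of genes that rose under high stretch and were not called under low stretch, in 5.82% of the 15721 windows of genes tested and in 7.81% of all 32851 windows. For genes that fell in both the share was 7.51% of 346 windows. The TEAD motif was in 11.8% of the windows of genes that rose in both, 20.2% of those of genes that fell in both, 12.9% of those of genes tested and 14.7% of all windows. For the kappaB site these shares were 18.9%, 14.7%, 11.9% and 9.38%.

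Genes with clear changes at both amplitudes also included some whose effects were bounded to be alike. There were 170 genes called in both and bounded within 2-fold, 60 higher and 110 lower, and 141 of them still had the larger absolute effect under high stretch. Col11a1, a minor fibrillar collagen chain, stood at 6.76, 8.01 and 9.48 CPM in the controls of experiment 1 and between 1.49 and 2.38 CPM after low stretch. In experiment 2 it went from 1.19, 1.79 and 2.29 CPM to 0.234, 0.355 and 0.425 CPM. The controls of experiment 2 thus lay at the level of the low-stretch samples, yet the fall was alike: 2.22 (SE 0.21) and 2.38 (SE 0.28) on the log2 scale, with a difference of -0.16 (interval -0.9 to 0.58, adjusted p of the bound 0.0316). Pstpip2, an adaptor that binds membranes and actin, rose by 1.6 and 1.74, and Eva1a, a regulator of autophagy, by 1.78 and 1.67. Ankrd29 fell by 1.42 and 1.7, the retinaldehyde dehydrogenase Aldh1a7 by 1.57 and 1.38, and the predicted gene Gm12153 by 1.81 and 1.92. With the bound tightened to 1.5-fold, 5 genes remained of all those tested.

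A call at one amplitude alone was more common under high stretch, with 980 genes (4.45%), than under low stretch, with 132 genes (0.6%). It did not by itself mark a difference: 709 of the 980 had an unadjusted p under 0.05 after low stretch as well, and 318 were bounded within 2-fold. Among the 271 genes with a low-stretch p of 0.05 or more, and with a mean of at least 1 CPM, the lowest high-stretch p-values belonged to Smtnl2, Dusp7, St8sia2 and Slc15a2. Dusp7, a phosphatase of ERK, gave 37.3, 45.9 and 47.0 CPM under high stretch against 24.0, 24.0 and 25.7 CPM in the controls. Its low-stretch samples ran from 22.2 to 31.0 CPM and overlapped controls at 22.2, 22.8 and 23.2 CPM. It rose by 0.82 after high stretch (SE 0.15, adjusted p 0.00439), its low-stretch effect was 0.25 (adjusted p 0.388), and the difference was 0.57 (interval 0.16 to 0.98). Slc15a2, a peptide transporter, fell by 2.07 after high stretch from a control mean of 0.925 CPM, and its low-stretch effect was -0.63 (adjusted p 0.358).

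On the other side stood 28 genes called under low stretch with a high-stretch p of 0.05 or more, among them Serpinb9, Msh5, Sox8 and Lcat. Serpinb9, an inhibitor of granzyme B, stood between 56.5 and 80.9 CPM after low stretch against 35.3, 36.3 and 43.3 CPM in the controls. After high stretch it was at 39.8, 40.6 and 43.4 CPM with controls at 29.9, 32.6 and 45.4 CPM, which overlap. It rose by 0.83 after low stretch (SE 0.15, adjusted p 0.00602), a call lost without unstretched replicate 3 of experiment 1, and its high-stretch effect was 0.2 (adjusted p 0.567). The difference was -0.63 (interval -1.1 to -0.16, unadjusted p 0.0116). Lcat, which esterifies cholesterol in lipoproteins, fell by 0.56 after low stretch and had a high-stretch effect of 0.02. The mismatch-repair family gene Msh5 fell by 0.84 and the transcription factor Sox8 rose by 0.56 after low stretch, with high-stretch effects of -0.44 and 0.14.

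**Figure D3:**
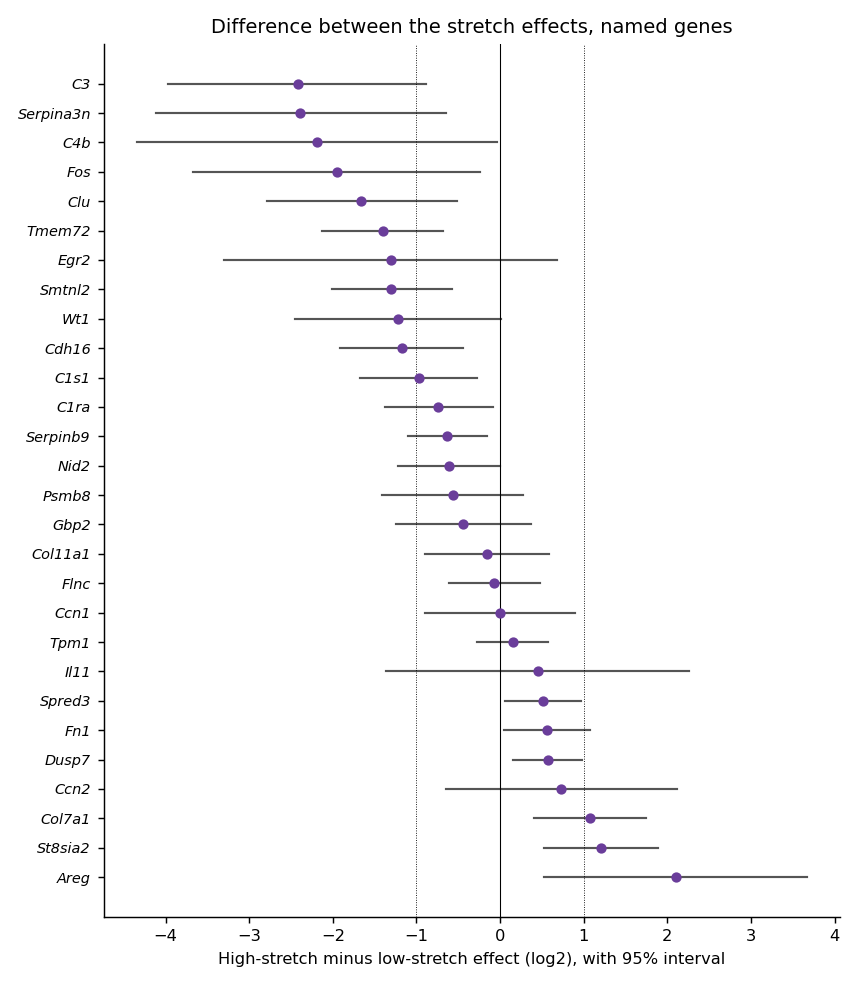
Difference between the effects (high-stretch minus low-stretch, log2) of named genes, ordered from lowest to highest. Points are estimates, bars their 95% intervals, and dotted lines mark a 2-fold difference in either direction. The intervals of C3 and Clu lie below 0, those of Areg and St8sia2 lie above 0, and those of Col11a1 and Tpm1 span 0 inside the dotted lines.

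Pathways were compared through 40 gene lists, each described by its counts and medians beside those of all genes tested. The median effects of all genes tested were 0.01 and -0.05 (log2). Every list count from here on stands beside the following shares of all genes tested. After low stretch 0.65% rose and 2.26% fell, and after high stretch 2.47% rose and 4.29% fell. An unadjusted p of the difference under 0.05 was found in 2.48%. Complement components and regulators had the lowest median difference among the lists of nuclear genes, -0.41. Of 16 tested members, 5 fell after low stretch and 7 after high stretch, none rose, and the median effect went from -0.29 to -0.97. Of the 16, 6 members had an unadjusted p of the difference under 0.05, beside 2.48% of all genes tested. The difference was below 0 in each, among them C1ra, C1s1, C3, C4b and Clu. Without unstretched replicate 3 of experiment 1 the low-stretch count was 3 and the median -0.05. The immune marker list summed to between 6.02 and 13.2 CPM in stretched and between 23.6 and 26.4 CPM in unstretched samples, most of it Csf1r, and 6 of its 8 genes, Ptprc, Adgre1, Cd3e and Tyrobp among them, were near 0. The part of these genes in the falls of complement and interferon genes was not tested.

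C3 stood at 3.62, 4.57 and 7.11 CPM in the controls of experiment 1 and between 0.345 and 1.22 CPM, with a median of 0.499, after low stretch. It stood at 7.81, 14.2 and 28.9 CPM in the controls of experiment 2 and at 0.162, 0.524 and 0.56 CPM after high stretch. The stretched groups overlapped each other, and the controls of experiment 2 were all above those of experiment 1. C3 fell by 2.95 (SE 0.44, adjusted p 0.00227) and by 5.37 (SE 0.64, adjusted p 0.000397), with a difference of -2.42 (unadjusted p 0.0043). With the well-code runs as a block the difference was -2.32 and passed after adjustment, with an adjusted p of 0.0122.

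C1s1, a protease of the C1 complex, was at 10.3, 13 and 15 CPM in the controls of experiment 1 and between 2.33 and 4.19 CPM after low stretch. It was at 7.14, 9.2 and 12.2 CPM in those of experiment 2 and at 0.999, 1.09 and 1.45 CPM after high stretch. Here the controls overlapped between experiments and the high-stretch samples lay below every low-stretch sample. C1s1 fell by 2.05 (SE 0.2) and by 3.02 (SE 0.27), a difference of -0.97 (interval -1.67 to -0.27, unadjusted p 0.00999). Its partner protease C1ra fell by 1.4 and 2.14, the opsonin precursor C4b by 2.8 and 4.99, and the complement-cleaving protease Cfi by 2.1 and 3.5.

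Clu gave 37.4, 54.9 and 62.5 CPM in the controls of experiment 1 and from 24.3 to 76.5 CPM after low stretch, a full overlap. In experiment 2 it gave 149.2, 183.1 and 256.4 CPM in the controls and 43.7, 43.8 and 90.2 CPM after high stretch. Its low-stretch effect was -0.07 (adjusted p 0.953), it fell by 1.73 after high stretch (adjusted p 0.0176), and the high-stretch call was lost without high-stretch replicate 1 or 3. The difference was -1.66 (interval -2.79 to -0.52), and -1.61 with an adjusted p of 0.0275 with the well-code runs as a block.

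The promoter window of C1ra is shown as that of a member whose fall passed at both amplitudes in all 15 fits with 1 sample left out. It is chr6:124512371-124512670 on the plus strand of GRCm38.p6, with the 6 motifs in capitals.
C1ra: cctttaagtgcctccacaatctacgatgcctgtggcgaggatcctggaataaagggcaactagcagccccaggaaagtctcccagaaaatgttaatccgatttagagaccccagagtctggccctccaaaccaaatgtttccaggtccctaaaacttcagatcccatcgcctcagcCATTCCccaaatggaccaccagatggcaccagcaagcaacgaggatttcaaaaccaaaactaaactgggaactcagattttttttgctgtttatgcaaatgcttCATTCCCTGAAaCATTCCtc
It holds 3 TEAD motifs and 1 GAS element, whose first base lies 32 bases after the start and overlaps a TEAD motif. The GAS element was in 7.51% of the windows of genes that fell in both, 7.01% of those of genes tested and 8.3% of all windows.

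Of 28 interferon-stimulated genes tested, 6 fell after low stretch and 9 after high stretch, the 6 among the 9, and none rose. There were 23 members with the same sign in both effects (82.1%), beside 74.1% of all genes tested. Oas3, under 0.1 CPM in mean in each group, had effects of -0.54 and 2.39 (adjusted p 0.0819 under high stretch). The median went from -0.44 to -0.69. Without unstretched replicate 3 of experiment 1, 1 fell after low stretch, and Gbp2 was among the calls lost. Gbp2, a guanylate-binding GTPase of the interferon-gamma response, stood at 32.2, 33.8 and 66.4 CPM in the controls of experiment 1 and between 9.06 and 23.1 CPM after low stretch. It went from 53.2, 55.7 and 61.7 CPM to 13.5, 15.9 and 16.2 CPM in experiment 2. All stretched samples lay below all controls, and Gbp2 fell by 1.46 (SE 0.24) and by 1.9 (SE 0.3), with a difference of -0.44 (interval -1.25 to 0.37). Gbp3 fell by 1.42 and 1.79, and the antiviral gene Ifit1 by 0.91 and 1.45. Ifit3 and Ifit3b passed under high stretch, with falls of 1.47 and 1.42, and had low-stretch effects of -0.59 and -0.28.

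Antigen presentation by MHC class I gave 7 falls among 16 members after high stretch and no call after low stretch, with medians of -0.67 and -0.44. The 7 were H2-K1, H2-M3, Tap2, Tapbp, Psmb8, Psmb9 and Erap1. No member had a difference with an unadjusted p under 0.05, beside 2.48% of all genes tested. Of the members 7 (43.8%) were bounded within 2-fold, beside 51.6% of all genes tested. With each experiment fitted alone the calls turned to 4 falls after low stretch and 0 after high stretch, and the high-stretch count was 1 without high-stretch replicate 1 and 3 without unstretched replicate 1. With the well-code runs as a block, 9 members fell after low stretch and 10 after high stretch. Tapbp, which loads peptides on MHC class I, was at 80.4, 97.5 and 98.6 CPM in the controls of experiment 1 and between 62.1 and 77.9 CPM after low stretch. It was at 158.3, 194.4 and 206.4 CPM in those of experiment 2 and at 88.8, 109.1 and 127.3 CPM after high stretch. The groups were apart in both experiments, at effects of -0.38 (adjusted p 0.148) and -0.78 (adjusted p 0.00663).

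The windows of Gbp2 (chr3:142620413-142620712, plus strand) and Psmb8 (chr17:34197945-34198244, plus strand) are shown for these lists, from the same table and with the same capitals.
Gbp2: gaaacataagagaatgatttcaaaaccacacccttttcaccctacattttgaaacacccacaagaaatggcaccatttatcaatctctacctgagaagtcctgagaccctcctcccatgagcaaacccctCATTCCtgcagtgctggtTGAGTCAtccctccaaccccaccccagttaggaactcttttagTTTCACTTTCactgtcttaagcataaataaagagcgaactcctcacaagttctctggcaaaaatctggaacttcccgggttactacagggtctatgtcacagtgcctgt
Psmb8: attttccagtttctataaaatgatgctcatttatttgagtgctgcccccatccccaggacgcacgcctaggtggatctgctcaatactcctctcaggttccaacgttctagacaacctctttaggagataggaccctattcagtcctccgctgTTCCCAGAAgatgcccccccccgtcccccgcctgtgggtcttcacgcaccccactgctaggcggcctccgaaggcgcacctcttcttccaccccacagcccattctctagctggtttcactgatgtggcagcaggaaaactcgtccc
The Gbp2 window holds an ISRE core on the opposite strand whose first base lies 59 bases before the start, an AP-1 motif and a TEAD motif. Psmb8, an immunoproteasome subunit, holds a GAS element 97 bases before the start. The ISRE core was in 3.76% of the windows of genes that fell in both, in 3.14% of those of genes that fell under high stretch alone by call, in 3.04% of those of genes tested and in 3.44% of all windows.

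Cytokine signalling outside the complement list was mixed. Among the IL-6 and IL-1 family members, Il11 and Il1rl1 rose and Socs3 fell at both amplitudes. Socs3, the feedback inhibitor of gp130 signalling, fell by 1.11, a call held in 7 of 15 fits with 1 sample left out, and by 1.7. The oncostatin M receptor Osmr fell by 1.18 after high stretch, with a low-stretch effect of -0.42 (adjusted p 0.465). Of 12 chemokines tested, 3 fell after low stretch and 2 after high stretch, the latter 0 without high-stretch replicate 1 or unstretched replicate 1 of experiment 2. Cxcl12, a chemokine that acts on CXCR4, fell by 1.12 after low stretch (adjusted p 0.0043) and had a high-stretch effect of -0.68 (adjusted p 0.0838), a difference of 0.44 (interval -0.19 to 1.06).

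Among 17 serpins, 3 rose and 3 fell after low stretch, and 3 rose and 2 fell after high stretch. Without unstretched replicate 3 of experiment 1 the low-stretch counts were 0 and 1. Serpina3n, an acute-phase protease inhibitor, fell by 3.44 and 5.83 from control means of 1.63 and 2.94 CPM, with a difference of -2.39 (interval -4.12 to -0.65). The difference was between -3.02 and -2.05 in the fits with 1 sample left out. Serpinb6a rose by 0.6 and 0.97, while its paralog Serpinb6b had effects of 0.86 (adjusted p 0.0614) and -0.04 (adjusted p 0.954), a difference of -0.9 (interval -1.64 to -0.17). Values of serpin, Gbp and Ifit paralogs are uncertain as far as reads from near-identical copies could have been split between them.

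**Figure D4:**
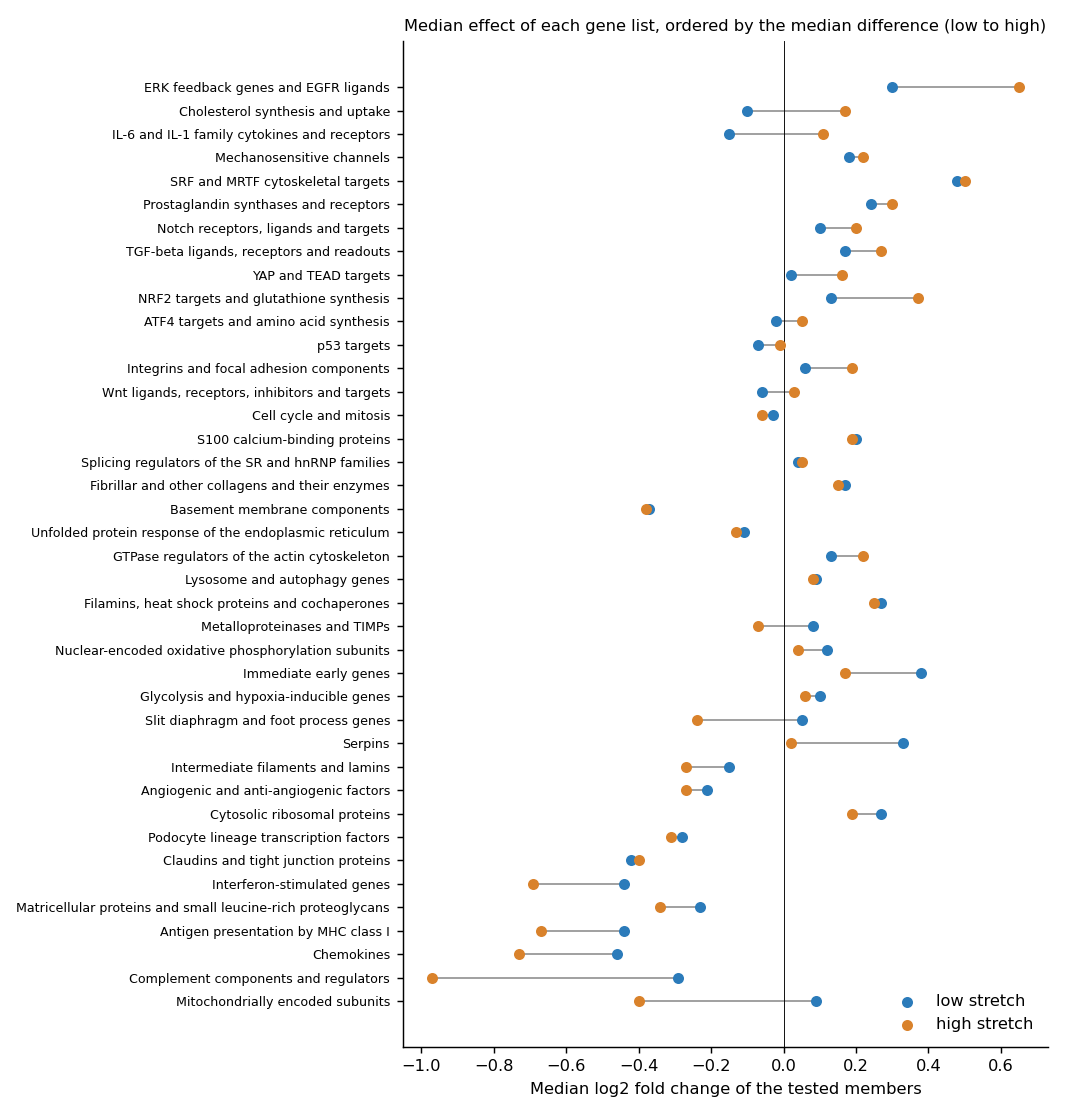
Median log2 fold change of the tested members of each of the 40 gene lists under low stretch (blue) and high stretch (orange), ordered by the median difference of the members. Complement components, at -0.29 and -0.97, and the ERK feedback list, at 0.3 and 0.65, show wide gaps, while basement membrane components, at -0.37 and -0.38, and SRF and MRTF targets, at 0.48 and 0.5, show medians close together.

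SRF and MRTF targets, the contractile and cytoskeletal genes that respond to the actin state, had median effects of 0.48 and 0.5 over 25 tested members. The median difference of the members was 0.15 and 20 (80.0%) had the larger absolute effect under high stretch, beside 65% of all genes tested. There were 18 members bounded within 2-fold (72.0%), beside 51.6% of all genes tested and 79.6% of those with a mean of at least 1 CPM. None had a difference with an unadjusted p under 0.05, beside 2.48% of all genes tested. After low stretch 1 member rose and after high stretch 7 rose, a contrast in calls that turned to 5 and 2 with each experiment fitted alone and was 11 and 15 with the well-code runs as a block. Under high stretch 1 member rose without unstretched replicate 1 of experiment 2 and 2 rose without high-stretch replicate 1. Tpm1, an actin-filament tropomyosin, was at 1359, 1523 and 1569 CPM in the controls of experiment 1 and between 2161 and 2921 CPM after low stretch. It was at 1705, 2122 and 2538 CPM in those of experiment 2 and at 3764, 3958 and 4077 CPM after high stretch. The groups did not overlap within an experiment, and Tpm1 rose by 0.74 (SE 0.13, adjusted p 0.0064) and by 0.89 (SE 0.15, adjusted p 0.00293). Its difference of 0.15 had an interval of -0.27 to 0.57 and was bounded within 2-fold (adjusted p 0.00195). The actin crosslinker Flna had effects of 0.5 (adjusted p 0.198) and 0.75 (adjusted p 0.046).

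YAP and TEAD targets did not move as one. Of 21 tested, none passed after low stretch, and after high stretch Ccn2 rose while Amotl2 and Nuak2 fell. Ccn2, the matricellular connective tissue growth factor, stood at 98.2, 224.0 and 388.6 CPM in the controls of experiment 1 and between 222.1 and 896.0 CPM, with a median of 669.9, after low stretch. It stood at 239.3, 416.6 and 428.8 CPM in those of experiment 2 and at 1407, 1558 and 1691 CPM after high stretch. The groups overlapped in experiment 1 and were far apart in experiment 2. Ccn2 had a low-stretch effect of 1.37 (SE 0.46, adjusted p 0.134) and rose by 2.1 after high stretch (SE 0.51, adjusted p 0.0213), a call lost without high-stretch replicate 1 or 3 or unstretched replicate 1. The difference of 0.73 had an interval of -0.65 to 2.11. Ccn1, a target of the same factors, had effects of 0.09 and 0.09, and its level was 1004 CPM in the controls of experiment 2 against 416.3 CPM in those of experiment 1. Ankrd1, a titin-binding stretch-response protein, had effects of 0.49 (adjusted p 0.351) and 0.84 (adjusted p 0.0762). Without unstretched replicate 3 of experiment 2, 6 members rose after high stretch, and without unstretched replicate 1 of experiment 2 or high-stretch replicate 1 no member passed. With the well-code runs as a block 5 rose and 3 fell after low stretch, and 8 rose and 6 fell after high stretch.

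Genes of the ERK feedback loop and EGFR ligands had the largest positive median difference of the lists, 0.51, with median effects of 0.3 and 0.65. Without unstretched replicate 2 of experiment 1 the median difference was 0.1. Of 17 tested members, none passed after low stretch and 4 rose after high stretch: the phosphatase Dusp4, the ERK inhibitors Spred2 and Spred3, and Areg. The count was 4 or 5 in the fit of each experiment alone and without replicate 3 of either control group, and 2 without high-stretch replicate 1 or without unstretched replicate 1 of experiment 2. With the well-code runs as a block 3 rose and 1 fell after low stretch and 7 rose after high stretch. Spred3 was at 39.1, 40.4 and 44.1 CPM under high stretch against 22, 22.5 and 26.1 CPM in the controls. Its low-stretch samples ran from 25.2 to 43.4 CPM with controls at 26.1, 26.2 and 28.8 CPM. It rose by 0.81 after high stretch (SE 0.16, adjusted p 0.00812) and had a low-stretch effect of 0.29 (adjusted p 0.345), a difference of 0.51 (interval 0.06 to 0.97). Areg was low, at 0.277, 0.286 and 0.352 CPM under high stretch against 0.0258, 0.0364 and 0.037 CPM in the controls. After low stretch it ran from 0.0348 to 0.164 CPM and overlapped its controls, which reached 0.0755 CPM. Areg rose by 3.18 after high stretch (adjusted p 0.00426), had a low-stretch effect of 1.08 (adjusted p 0.28), and differed by 2.1 (interval 0.53 to 3.67).

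Immediate early genes, the first transcripts that growth factor and stress signals induce, went both ways. Of 22 members, 2 rose and 2 fell after low stretch, and 4 rose and 4 fell after high stretch. Each member had the same sign at both amplitudes, beside 74.1% of all genes tested. Under high stretch the counts were 0 and 5 without unstretched replicate 1 of experiment 2, and 2 and 2 without high-stretch replicate 1. Dusp1, a MAP kinase phosphatase, rose by 1.69 and 1.36, and the AP-1 subunit gene Fosl2 by 0.88 and 0.89 (interval of the difference -0.64 to 0.66). Myc rose by 1.59 after high stretch and had a low-stretch effect of 1.05 (adjusted p 0.0695). Egr2, a zinc-finger factor, was at 3.55, 5.58 and 14.7 CPM in the controls of experiment 1 and between 0.805 and 1.35 CPM after low stretch. It was at 3.64, 4.63 and 45.1 CPM in those of experiment 2 and at 0.754, 0.999 and 1.05 CPM after high stretch. Egr2 fell by 2.94 (adjusted p 0.0107) and by 4.26 (adjusted p 0.00503), with the low-stretch call lost without unstretched replicate 2 of experiment 1. The difference of -1.31 became 0.86 without unstretched replicate 3 of experiment 2.

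That 1 library carried the high level of other early genes as well. Fos was at 22.6, 22.6 and 229.4 CPM in the controls of experiment 2 and at 11, 13.3 and 14.1 CPM after high stretch. In experiment 1 it was at 20.3, 22.5 and 23.3 CPM in the controls and between 8.29 and 14.4 CPM after low stretch. The stretched groups lay below the controls in both experiments and at about the same level. Fos fell by 2.84 after high stretch (adjusted p 0.0136), a call lost without high-stretch replicate 1 or 3, and had a low-stretch effect of -0.89 (adjusted p 0.443). Its difference was -1.95 with all samples and 0.13 without replicate 3 of the unstretched samples. Egr1 was at 1059.7 CPM in that library beside 115.6 and 104.0 CPM. Whether mitochondrial share or depth had a part in these values was not tested.

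The promoter window of Egr2 is shown for the CArG box, the site of SRF. It is chr10:67537619-67537918 on the plus strand of GRCm38.p6, 1 of 5 windows listed for the gene, with the same capitals.
Egr2: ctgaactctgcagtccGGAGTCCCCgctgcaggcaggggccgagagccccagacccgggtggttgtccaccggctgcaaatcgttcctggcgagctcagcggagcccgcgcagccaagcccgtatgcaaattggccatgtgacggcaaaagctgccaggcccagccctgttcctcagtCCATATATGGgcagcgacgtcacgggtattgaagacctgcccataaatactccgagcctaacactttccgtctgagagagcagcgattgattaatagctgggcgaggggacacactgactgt
The CArG box begins 72 bases before the start and reads the same on both strands, and a kappaB motif lies on the opposite strand 234 bases before the start. The CArG box was in 1.57% of the windows of genes that rose in both, in 1.73% of those of genes that fell in both, in 1.35% of those of genes tested and in 1.63% of all windows.

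**Figure D5:**
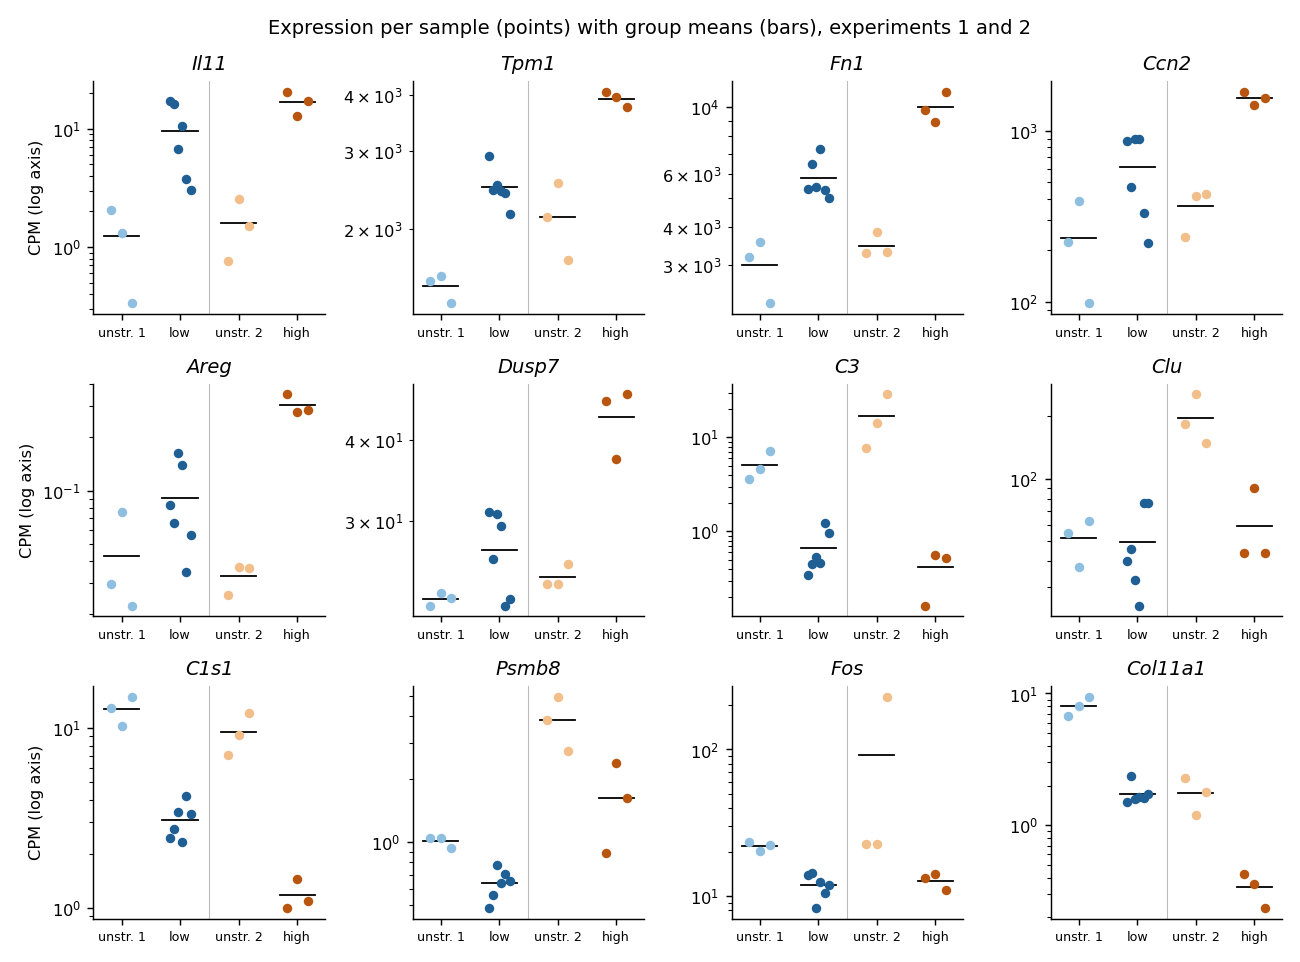
Level of 12 genes in each sample (points, CPM on a log axis) with group means (bars), for the unstretched and low-stretch samples of experiment 1 and the unstretched and high-stretch samples of experiment 2. For C3 and Clu the unstretched samples of experiment 2 are the highest group, for Areg and Dusp7 the high-stretch samples are, and 1 unstretched sample of Fos stands at 229.4 CPM.

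Growth factor pathways were read beside 2.91% and 6.76% of all genes called. Of 27 genes of the TGF-beta pathway, 1 rose and 1 fell after low stretch, and 5 rose and 3 fell after high stretch. Pmepa1, a TGF-beta-induced inhibitor of SMAD signalling, rose by 1.5 and 1.94, the latent TGF-beta binding protein Ltbp1 had effects of 1.04 (adjusted p 0.095) and 1.62 (adjusted p 0.0114), and Smad7, the inhibitory SMAD, of 0.28 and 0.93 (adjusted p 0.0344). Under high stretch 1 member rose without unstretched replicate 1 of experiment 2, 2 rose without high-stretch replicate 1, and 10 rose without unstretched replicate 3. Axin2, a readout and inhibitor of Wnt signalling, rose by 1.72 and 2.15 from controls between 0.523 and 0.708 CPM in experiment 1 and between 0.85 and 1.55 CPM in experiment 2. Sfrp1, a secreted Wnt antagonist, fell by 1.51 after high stretch and had a low-stretch effect of -0.84 (adjusted p 0.0654). Of 28 Wnt genes, 2 rose after low stretch, and 4 rose and 3 fell after high stretch. With each experiment fitted alone 3 Wnt genes rose and 3 fell after low stretch, and 2 rose and 2 fell after high stretch. No Notch gene passed under high stretch, and 1 of 17, Notch3, fell under low stretch.

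Among matrix genes, 25 collagens and their enzymes gave 2 rises and 2 falls after low stretch and 4 rises and 3 falls after high stretch. Basement membrane components had medians of -0.37 and -0.38 over 22 members, with 6 falls after low stretch and 6 after high stretch, 4 of them shared, and 2 rises under high stretch. The low-stretch falls numbered 1 without unstretched replicate 3 of experiment 1, and the high-stretch falls 2 without unstretched replicate 1 of experiment 2 and 3 without high-stretch replicate 1. Nid2, a linker of laminin and collagen IV networks, went from 97.5, 101.9 and 114.9 CPM to between 17.2 and 34.8 CPM after low stretch, and from 88.4, 116.2 and 146.6 CPM to 17.4, 20.0 and 22.2 CPM after high stretch. The stretched groups overlapped each other and lay far below both control groups. Nid2 fell by 1.95 (SE 0.18) and by 2.56 (SE 0.23), a difference of -0.61 (interval -1.22 to 0.0). The laminin chain Lamc1 fell by 0.56 and 0.57 and the collagen IV chain Col4a5 by 0.67 and 0.79, and Col4a1 had effects of -0.42 and -0.51, neither of which passed.

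The 2 rises under high stretch were Col4a3 and Lamb3, both below 1 CPM in every sample, with differences of 1.86 (interval 0.93 to 2.8) and 1.93 (interval 0.53 to 3.34). Their low-stretch effects were 1.0 (adjusted p 0.0682) and 0.91 (adjusted p 0.353). Col4a3 stood between 0.276 and 0.639 CPM after low stretch, above controls at 0.211 to 0.242 CPM. It stood between 0.454 and 0.55 CPM after high stretch, above controls at 0.0322 to 0.091 CPM. For Col4a3 the gap was 0.21 between the stretched groups and -1.74 between the unstretched groups. For Lamb3 these gaps were 2.54 and 0.5. Both genes were named after their values were seen. Fn1, the fibronectin that cells assemble under tension, stood at 2241, 3181 and 3575 CPM in the controls of experiment 1 and between 5009 and 7250 CPM after low stretch. It stood at 3278, 3306 and 3852 CPM in those of experiment 2 and at 8915, 9771 and 11247 CPM after high stretch. The controls of the 2 experiments overlapped and every high-stretch sample lay above every low-stretch sample. Fn1 rose by 0.96 (SE 0.17, adjusted p 0.00493) and by 1.52 (SE 0.19, adjusted p 0.000426), a difference of 0.56 (interval 0.05 to 1.08, unadjusted p 0.0328). The low-stretch call was lost without unstretched replicate 3 of experiment 1. In the list that holds Fn1 with the small leucine-rich proteoglycans, 1 member rose and 4 fell after low stretch, and 2 rose and 6 fell after high stretch. Falls numbered 2 after low stretch without unstretched replicate 3 of experiment 1, and 3 after high stretch without high-stretch replicate 1. The proteoglycan Ogn fell by 1.73 and 2.88.

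Podocyte genes did not all follow one direction. Among 17 slit diaphragm and foot process genes, 1 rose and 3 fell after low stretch, and 2 rose and 5 fell after high stretch. Falls numbered 1 after low stretch without unstretched replicate 3 of experiment 1, and 2 after high stretch without high-stretch replicate 1. The intermediate filament nestin, Nes, went from 51.7, 51.9 and 57.2 CPM to between 89.1 and 124.2 CPM after low stretch and from 34.8, 35.9 and 42.1 CPM to 76.7, 99.6 and 130.8 CPM after high stretch. It rose by 0.98 and 1.44, a difference of 0.46 (interval -0.05 to 0.98). Plce1, a phospholipase C of nephrotic syndrome, fell by 1.96 and 2.49, and the Rac-inactivating Arhgap24 by 0.96 after high stretch, with a low-stretch effect of -0.49 (adjusted p 0.0913). Synpo, the actin-binding synaptopodin, had effects of 0.21 and -0.01 and was bounded within 2-fold (adjusted p 0.038).

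Wt1, the transcription factor that holds podocyte identity, stood at 4.15, 4.89 and 6.12 CPM in the controls of experiment 1 and between 1.21 and 4.0 CPM after low stretch. It stood at 1.75, 1.84 and 4.83 CPM in those of experiment 2 and at 0.437, 0.582 and 0.617 CPM after high stretch. No sample group overlapped its control. Wt1 fell by 2.37 after high stretch (SE 0.46, adjusted p 0.0063), its low-stretch effect was -1.15 (SE 0.36, adjusted p 0.108), and the difference was -1.22 (interval -2.45 to 0.01). Nphs1, which encodes nephrin, was at or below 1.0 CPM and had effects of 0.58 (adjusted p 0.58) and -0.33 (adjusted p 0.778).

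Housekeeping and stress pathways held the genes whose effects were most often bounded. Beside 51.6% of all genes tested, those bounded within 2-fold were 36 of 37 nuclear-encoded oxidative phosphorylation subunits, 20 of 21 genes of the unfolded protein response, 32 of 36 splicing regulators, 59 of 73 cytosolic ribosomal proteins and 19 of 22 p53 targets. These genes are abundant, and abundant genes had smaller standard errors: the share bounded was 79.6% among genes with a mean of at least 1 CPM. No oxidative phosphorylation or unfolded protein response gene passed at either amplitude. The chaperone Hspa5 had effects of -0.14 and -0.13, and the transcription factor gene Ddit3 of -0.43 and -0.29. Among the splicing regulators only Celf2 passed, with a fall of 1.05 after high stretch that held in 10 of 15 fits with 1 sample left out, and in the cell cycle list no gene of 32 passed.

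Cholesterol synthesis and uptake genes gave no call at either amplitude among 25 members. The same sign in both effects was found in 13 of them (52.0%), beside 74.1% of all genes tested. The medians of the list were -0.1 and 0.17, and the latter was 0.04 without high-stretch replicate 1. The mitochondrially encoded subunits had medians of 0.09 and -0.4 over 13 members with no call, and the high-stretch median was -0.03 without replicate 3 of the unstretched samples of experiment 2, the library with the highest mitochondrial share of its experiment. Hk2, which commits glucose to glycolysis, rose by 1.08 and 1.89, with its low-stretch call held in 6 of 15 fits with 1 sample left out, and the amino acid transporter Slc7a5 fell by 0.78 and 0.84 (interval of the difference -0.62 to 0.48).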

How the data were processed

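RNA-seq was compared in 6 low-stretch and 3 unstretched samples of experiment 1 and 3 high-stretch and 3 unstretched samples of experiment 2. The values were raw counts per gene deposited by the authors, for 55416 genes. Per the labels' protocols, libraries were poly(A)-selected and stranded. The submitters' processing notes name STAR 2.7.5c, Subread 2.0.0 with featureCounts, Salmon 1.9.0, DESeq2 1.38.3 and the build mm39, without their order.

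Counts were fitted with edgeR 4.0.16 in R 4.3.3 (TMM scaling, filterByExpr, quasi-likelihood test, Benjamini-Hochberg adjustment over all 22015 genes kept). A single fit held the 4 group means, so that the groups share the estimate of spread, and gave both effects and their difference. The standard error was the absolute log2 fold change divided by the square root of F, and intervals are 95%. The bound of 2-fold came from 2 one-sided tests against a log2 difference of 1. The ratio of effects across genes used genes with a mean of at least 1 CPM and had the mean squared standard error subtracted from the variance of the low-stretch effects. Log2 CPM used a prior count of 2. Symbols came from GENCODE M21 for 52083 genes. Scripts were tested on simulated data.

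Replicate numbers did not pair the samples of experiment 1, and in experiment 2 they were the same split as the runs of consecutive well codes. The alternatives were DESeq2 1.42.0, another scaling, stricter and no count filters, blocks for replicate number or for runs of consecutive well codes, separate fits, a 1.5-fold bound and leaving out each sample. Genes were named by rank rules on the p-value or size of an effect among genes of at least 1 CPM, by up to 4 per list and from a short preset set. Others were named because they passed the test in a list, after their values were seen. The comparison, the lists and the named genes were chosen with earlier results of these data known. Some items are not reported here.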

Additional observations from a re-analysis of the deposited data

Results flagged for a closer look

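Of the 102 genes described, 5 had 1 low-stretch sample that stood apart from the other 5 by more than the 95% critical value of Dixon's gap test, and chance alone gives this in about 1 in 20 groups of samples. Adamtsl1 was at 0.821 CPM in low-stretch replicate 6. Ankrd29 was at 5.46 CPM in replicate 1, Cd68 at 0.911 CPM in replicate 5, Col11a1 at 2.38 CPM in replicate 2 and Myh7 at 0.921 CPM in replicate 2. The groups of 3 samples were not examined in this way.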

How the results depend on the processing

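No gene passed for the difference under DESeq2, other scaling, other count filters, the replicate block or any of the 15 fits with 1 sample left out. The block for runs of well codes gave 3. Genes passing under low stretch, high stretch and both numbered 1336, 2376 and 1043 with DESeq2, 1181, 643 and 280 with separate fits, and 2468, 3583 and 1853 with the well-code block. With 1 sample left out they ran from 144 to 1070, from 560 to 2391 and from 132 to 658. The largest moves came without unstretched replicate 3 of experiment 1 (144 under low stretch), unstretched replicate 3 of experiment 2 (2391 under high stretch) and high-stretch replicates 1 and 3 (560 and 648). The corrected ratio of high-stretch to low-stretch effects was 1.46 with the well-code block and from 1.47 to 3.09 with 1 sample left out. The limit given above for the value of 1.84 applies to this ratio. A bound of 1.5-fold left 5 genes, because the interval must be narrower. Apart from that, the cause of these moves was not tested.

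In experiment 1 samples of the same replicate number did not deviate together as a set, with correlations of 0.365, -0.139 and -0.44. In experiment 2 the replicate numbers and the runs of well codes gave the same pairs. Samples of the same run of well codes correlated at 0.328 to 0.57 in all 6 pairs of experiment 1, where every other pair was negative. The deviations were taken from group means, so positive pairs make the other pairs negative on balance. In experiment 2 the pairs of the same run correlated at -0.163, 0.45 and 0.241. The other pairs of experiment 2 ran from -0.541 to 0.443. A block on the replicate number gave 851 genes under low stretch, 1317 under high stretch and 689 in both, a ratio of 1.34 and a median difference of -0.11 for the complement list. Among single differences whose interval excluded 0, that of Fos turned from -1.95 to 0.13 without unstretched replicate 3 of experiment 2, and it was -2.42 at its lowest with 1 sample left out. The median standard error of a difference, 0.27 over genes of at least 1 CPM, set the size that these samples could resolve.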
